A study of Mus musculus with 4 samples.

Results

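The genes described here encode laminins, their linkers in the basement membrane, and the integrins and dystroglycan that hold cells to them. They were chosen by name, with earlier results of these data known. The names are the protein-coding mouse genes Lama1 to Lama5, Lamb1 to Lamb3, the Lamc genes, Nid1, Nid2, Hspg2, Agrn and Dag1. All genes named Itga or Itgb plus a number or letter were added, without Itgbl1 and the Itgb1bp genes. These names gave 43 of the 53465 genes in the count files, namely 16 matrix and dystroglycan genes and 27 integrin genes (18 alpha and 9 beta subunits). RNA came from Fgf10-positive sorted cells of the submandibular gland, a salivary gland, of C57BL/6J mice. The comparison asks how these cells differ between adults, taken on postnatal day 60, and pups, taken on postnatal day 7, with 2 libraries per age. Mice of both ages had the genotype Fgf10CreERT2:Rosa26Tomato fl/fl and both received tamoxifen at 0.1 mg per g, the adults on days 57 and 58 and the pups on days 4 and 5. Fgf10 drives the inducible Cre in this line, so the Tomato reporter marks cells that expressed Fgf10 around the time of tamoxifen, and any cell type that did so can be in the sort. The labels do not say whether the replicates of an age came from separate animals or pools, so a p-value here takes in no more than the spread from sample to sample, which may be technical.

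Laminins are secreted trimers of 1 alpha, 1 beta and 1 gamma chain that polymerise on the cell surface and start the basement membrane, the sheet that separates epithelium, muscle and vessels from stroma. Nidogens, perlecan and agrin tie the laminin sheet to the collagen IV sheet and to the cell. Integrins, each an alpha and a beta subunit, and dystroglycan are the receptors that bind laminin and other matrix proteins, and in salivary glands the basement membrane is known for its part in branching and in the polarity of acini and ducts.

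Gene counts per library ranged from 7289792 in pup replicate 1 to 21490686 in pup replicate 2, with 13791730 and 16585518 in the adults. Pup replicate 1 stood apart: 76.7% of its tallied reads lay outside genes (9.70% to 10.6% in the others), and 96.5% of 1134 olfactory receptor genes, which serve smell, had counts there (1.59% to 7.67% in the others). An even background at the rate of those genes would make up 24.2% of its gene counts, and the background expected for a member is given below where it matters. Fgf10 had a count in every library, at 195 CPM and 40.3 CPM (counts per gene scaled to library size with edgeR's TMM factors) in adult replicates 1 and 2, and at 27.3 and 24.1 CPM in those of the pups. Markers of several cell types had counts in all 4 libraries. In the order adult replicate 1, adult replicate 2, pup replicate 1, pup replicate 2, which is kept throughout, the summed CPM of 8 mesenchyme markers was 1236, 21710, 25365 and 57370, that of 6 ionocyte markers 5211, 2609, 51.7 and 41.2, and that of 4 matched acinar markers 501, 38237, 546 and 1666. Most of the acinar sum was Mucl2 in the adults, at 392 and 37832 CPM, and Smgc in the pups, at 526 and 1564 CPM. Mucl2 was higher in both adults and Smgc in both pups, so the acinar sum does not compare the ages on 1 scale. The summed CPM of 4 basal epithelium markers was 986, 332, 1473 and 3336. The adults thus differed from each other in mesenchyme and acinar markers, and how far such makeup bears on the genes below was not tested except where a value is given. In bulk RNA, fewer cells of a type and less RNA per cell cannot be told apart.

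Most of the set was lower in the adult libraries, among them most laminin chains, both nidogens and perlecan, while Lamb2, Lamc3, Itgb4, Itgb6 and Itgb8 had log2 fold changes above 0 (under library totals Lamc3 and Itgb8 lay below 0). After edgeR's filter on low counts 38 members were tested among 16320 genes; Itgad, Itgam, Itgax, Itgb2l and Itgb7 did not pass it. Both pup libraries lay above both adult libraries for 25 of the 38, against 27.1% of all genes tested. Both adult libraries lay above both pup libraries for 2 members, Itgb4 and Itgb6, against 21.8% of all genes; under upper-quartile factors or library totals this held for Itgb4 alone. The log2 fold changes of adult over pup had a median of -1.87 over the 38 members and -0.24 over all genes, and 33 of the 38 lay below 0, against 57.1% of all genes. Because all the genes were fitted together, p-values were adjusted over all 16320.

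No member passed edgeR's quasi-likelihood test at an adjusted p under 0.05 in either direction, and neither did any other gene, so the share of genes called was 0% for higher in adult and 0% for higher in pup. At an unadjusted p under 0.05 edgeR placed 13 members higher in pup, where 8.49% of all genes lay, and 0 members higher in adult, where 5.99% lay. DESeq2's adjusted test on the same 16320 genes called 12 members higher in pup, against 5.2% of all genes, and 0 higher in adult, against 3.66%. They included Lama3, Lama5, Lamb1, Lamb3, Lamc1, Hspg2, Agrn, Itga1, Itga2, Itga4 and Itgae; the limma-voom test called 0. The 13 at an unadjusted p under 0.05 were the same 12 and Itga8. DESeq2 and edgeR thus differed in the call on these genes, and with 2 libraries per age the statements below rest first on the values per library.

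**Figure D1:**
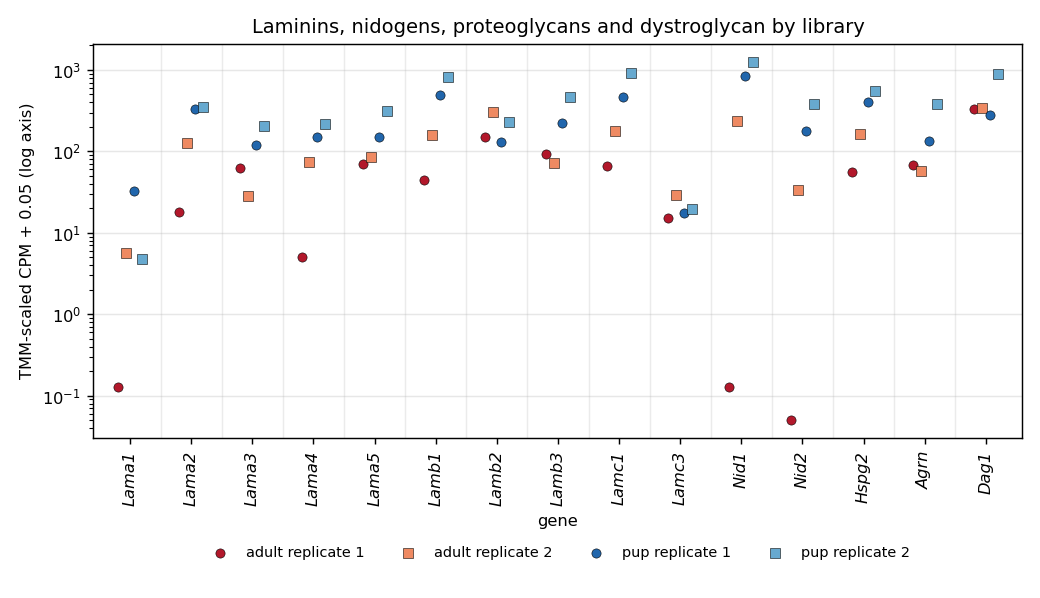
TMM-scaled CPM plus 0.05 of 15 matrix and dystroglycan genes in each library, on a log axis; each point is 1 library, red and orange for adult, dark and light blue for pup. The blue points lie above the red and orange points for most laminins, and adult replicate 1 lies far below the others for Lama1, Nid1 and Nid2.

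The laminin alpha chains carry the receptor-binding end of the trimer and differ most between tissues. All 5 had a log2 fold change below 0, with a median of -2.21, and DESeq2 called Lama3 and Lama5 higher in pup. Lama5, the broad alpha chain of mature epithelial and vascular basement membranes, stood at 70.4, 84.3, 152 and 309 CPM. The adults lay close together and both pups lay above them; the log2 fold change was -1.58 ± 0.59 (SE, 2 libraries per age; edgeR adjusted p = 0.296, DESeq2 adjusted p = 0.0349). Lama3, the alpha chain of the trimer under basal epithelial cells, stood at 62.9, 28.6, 121 and 205 CPM. Here too the groups did not overlap, with adult replicate 2 the lowest, and the log2 fold change was -1.83 ± 0.61 (edgeR adjusted p = 0.284, DESeq2 adjusted p = 0.0455).

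Lama2, the alpha chain of muscle, nerve and stromal laminin, stood at 17.9, 128, 329 and 352 CPM. Lama4, the alpha chain of vessels and mesenchymal cells, stood at 5.06, 74.2, 150 and 216 CPM. Both pups were above both adults for each of these genes, but the adults were 7.17-fold apart for Lama2 and 14.7-fold apart for Lama4. Their log2 fold changes were -2.22 ± 0.96 (edgeR adjusted p = 0.367) and -2.21 ± 1.13 (edgeR adjusted p = 0.456). The summed mesenchyme markers were also low in adult replicate 1 (1236 CPM against 21710 in adult replicate 2). There 6 of 7 endothelium markers, Cdh5, Kdr, Tek, Emcn, Cldn5 and Flt1, had 0 counts. The 7 endothelium markers summed to 0.0766, 985, 142 and 8.62 CPM. Their sum was thus highest in adult replicate 2 and low in pup replicate 2, where Lama4 was highest. The part of either marker list in the difference was not tested. Lama1, the alpha chain of early embryonic basement membranes, stood at 0.0766, 5.54, 32.6 and 4.78 CPM, with 45.1% of its count in pup replicate 1 expected as background, and its groups overlapped.

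The beta chains differed in how they split the ages: Lamb1 was lower in both adults, while Lamb2 overlapped between the ages. Lamb1 (chromosome 12, 31265234 to 31329644 in GRCm38), the beta chain of embryonic and stromal laminins, stood at 44.5, 158, 488 and 818 CPM. Both pups lay far above both adults, and the log2 fold change was -2.69 ± 0.88 (edgeR adjusted p = 0.284, DESeq2 adjusted p = 0.00245). Lamb2 (chromosome 9, 108479736 to 108490530), the beta chain that takes the place of Lamb1 in many mature basement membranes, such as those of the kidney glomerulus and the neuromuscular junction, stood at 151, 307, 130 and 232 CPM. Its groups overlapped, and the log2 fold change was 0.34 ± 0.64 (edgeR adjusted p = 0.873), which turned to -0.26 when adult replicate 2 was left out and to -0.024 when pup replicate 1 was. Lamb3 (chromosome 1, 193207699 to 193343878), a partner of Lama3 in basal epithelial laminin, stood at 93.1, 71.2, 224 and 471 CPM. As for Lamb1, both pups were above both adults, with a log2 fold change of -2.08 ± 0.65 (edgeR adjusted p = 0.284, DESeq2 adjusted p = 0.00338).

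The ratio of Lamb1 to Lamb2 within a library, from counts per kb of exon, needs no scaling between libraries. It was 0.181 and 0.316 in the adults, against 2.30 and 2.16 in the pups. Lamb2 was thus the more abundant of the pair per kb in both adults, and Lamb1 in both pups. The ages differed by 9.32-fold in this ratio (log2 -3.22), and the log2 ratio averaged -2.07 ± 0.57 in the adults and 1.16 ± 0.06 in the pups (SD, n = 2). An exact two-sided permutation test of 2 libraries against 2 cannot go below 0.3333, which was the p for this ratio; adjusted over the 8 ratios compared it was 0.889. The log2 difference lay between -3.62 and -2.82 whichever library was left out, and at -3.25 after the background of pup replicate 1 was subtracted. The summed mesenchyme markers, with sums of 1236, 21710, 25365 and 57370 CPM, were also higher in the pups, and their part in the ratio was not tested.

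The promoters of these 3 beta chain genes are shown because the ratio of Lamb1 to Lamb2 separated the ages. Sequences are from RefSeq on GRCm38.p6, plus strand, 5′ to 3′, cut off where an annotated exon begins, and capitals mark matches to 2 of the 4 motifs searched on both strands. Lamb1 is chr12:31265043-31265233, Lamb2 is chr9:108479612-108479735, and Lamb3 is chr1:193301744-193301992, which precedes a RefSeq start inside the annotated gene.
Lamb1: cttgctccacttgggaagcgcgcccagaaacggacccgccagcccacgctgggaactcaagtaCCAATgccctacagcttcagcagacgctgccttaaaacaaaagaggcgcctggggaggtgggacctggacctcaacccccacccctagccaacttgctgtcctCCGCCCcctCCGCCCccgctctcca
Lamb2: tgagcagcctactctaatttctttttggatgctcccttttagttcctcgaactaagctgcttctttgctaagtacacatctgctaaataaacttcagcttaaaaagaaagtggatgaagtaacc
Lamb3: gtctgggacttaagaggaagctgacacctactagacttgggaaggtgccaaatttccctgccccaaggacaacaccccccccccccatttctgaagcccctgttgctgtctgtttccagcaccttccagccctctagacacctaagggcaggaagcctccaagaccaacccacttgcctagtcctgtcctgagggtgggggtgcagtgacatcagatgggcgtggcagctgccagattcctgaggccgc
The printed stretch of Lamb1 held a CCAAT box (letters CCAAT) at 187 bases before the start and GC boxes (letters GGGCGG, read here on the opposite strand) at 84 and 75 bases before it. Neither of the other stretches held a match to these or to the AP-1 letters TGANTCA or the TEAD letters GGAATG. Among 27025 RefSeq promoters, the 250 bases before the start held a CCAAT match in 34.5%, a GC box in 32.9%, a TEAD match in 12.6% and an AP-1 match in 6.87%. A match is a description of these letters only.

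Gamma chains join every trimer, and Lamc1 is the usual one. Lamc1 (chromosome 1, 153218922 to 153332786) stood at 66.3, 179, 464 and 912 CPM. Both pups lay above both adults, with a log2 fold change of -2.49 ± 0.84 (edgeR adjusted p = 0.284, DESeq2 adjusted p = 0.00251). Lamc3, a minor gamma chain, stood at 15.02, 29.2, 17.4 and 19.4 CPM, with 53.1% of its count in pup replicate 1 expected as background, and its groups overlapped.

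Lama3 and Lamb3 belong to the laminin of hemidesmosomes, and both were called higher in pup by DESeq2. In adult replicate 1 they stood at 62.9 and 93.1 CPM and in adult replicate 2 at 28.6 and 71.2 CPM, so that neither was higher in adult replicate 2. Lama2, Lama4, Lamb1 and Lamc1, the chains that stromal cells share, were all higher in adult replicate 2 than in adult replicate 1, as were the mesenchyme markers. So were Lama5, Lamb2 and Lamc3, by 1.20-fold, 2.04-fold and 1.94-fold, and Lama1, with 77 counts against 1. The summed basal epithelium markers (Trp63, Krt5, Krt14 and Krt15) were higher in adult replicate 1, at 986 CPM against 332, and the part of these marker levels in the chain levels was not tested.

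**Figure D2:**
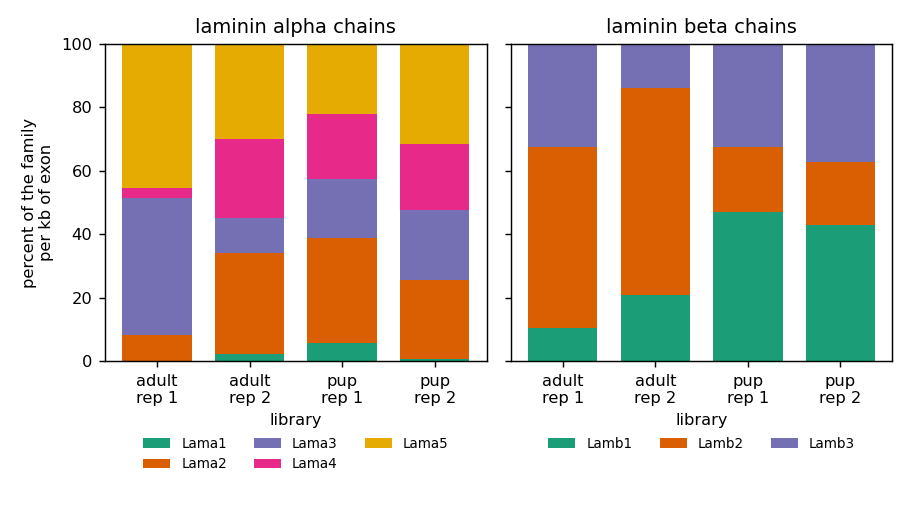
Share of each chain in the summed level of its laminin family, in percent of counts per kb of exon, for the alpha and beta chains; each bar is 1 library and adds to 100%. Lamb2 fills 57.2% and 65.4% of the beta bars in the adults, against 20.5% and 19.9% in the pups, while the alpha bars of the adults differ from each other more than those of the pups do.

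Shares within a family, per kb of exon, put the chains on one scale. Among beta chains Lamb1 held 10.3% and 20.7% in the adults, against 47.1% and 43.0% in the pups, and Lamb2 held 57.2% and 65.4% in the adults, against 20.5% and 19.9% in the pups. The ages did not overlap for either share. Among alpha chains Lama3 and Lama5 together led in adult replicate 1, with 43.2% and 45.6%, whereas adult replicate 2 had 10.8% and 30.1%. Lama2 held 8.06%, 31.8%, 33.3% and 25.0% and Lama4 held 3.09%, 25.0%, 20.5% and 20.8%. The alpha shares of adult replicate 2 thus lay nearer to those of the pups than to those of adult replicate 1.

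Nidogens 1 and 2 are the short rods that bridge laminin gamma chains to collagen IV. Nid1 (chromosome 13, 13437551 to 13512269), the more abundant of the pair, stood at 0.0766, 237, 840 and 1254 CPM. Adult replicate 1 had a single Nid1 count, against 3286 in adult replicate 2, a 3087-fold difference in CPM with a 95% counting interval of 554 to 121965. Nid2 stood at 0, 33.9, 176 and 383 CPM, and adult replicate 2 was at least 147-fold above the floor of 3 counts in adult replicate 1. Both pups were above both adults for each gene. As a fold, though not as a difference in CPM, the spread between the adults was wider than the distance from adult replicate 2 to the pups. The log2 fold changes were -3.15 ± 2.28 for Nid1 (edgeR adjusted p = 0.620, DESeq2 adjusted p = 0.612) and -4.04 ± 2.04 for Nid2 (edgeR adjusted p = 0.449, DESeq2 adjusted p = 0.568). Without adult replicate 2 the edgeR adjusted p was 0.0152 for Nid1 and 1.97e-05 for Nid2, and without adult replicate 1 the Nid1 log2 fold change was -2.19. With no filter beyond 1 count, which let 45490 genes in, edgeR called Nid2 as 1 member higher in pup (adjusted p = 0.0023), against 0.508% of all genes. The summed level of the 8 mesenchyme markers, none of which was at 0, was 1236 CPM in adult replicate 1, and its part in the near absence of nidogen counts there was not tested.

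Perlecan and agrin are heparan sulfate proteoglycans that bind laminin and dystroglycan. Hspg2, which encodes perlecan, stood at 55.2, 164, 409 and 552 CPM. Agrn, which encodes agrin, stood at 67.9, 57.2, 136 and 384 CPM. Both pups were above both adults for both genes, and the adults were close together for Agrn only. The log2 fold changes were -2.13 ± 0.77 for Hspg2 (edgeR adjusted p = 0.284, DESeq2 adjusted p = 0.0107) and -2.06 ± 0.68 for Agrn (edgeR adjusted p = 0.284, DESeq2 adjusted p = 0.0167). Dag1, which encodes dystroglycan, the laminin receptor linked to dystrophin, stood at 328, 343, 280 and 900 CPM. Pup replicate 1 lay below both adults and pup replicate 2 well above, so the groups overlapped, and the log2 fold change of -0.82 ± 0.82 (edgeR adjusted p = 0.737) was 0.26 without pup replicate 2.

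**Figure D3:**
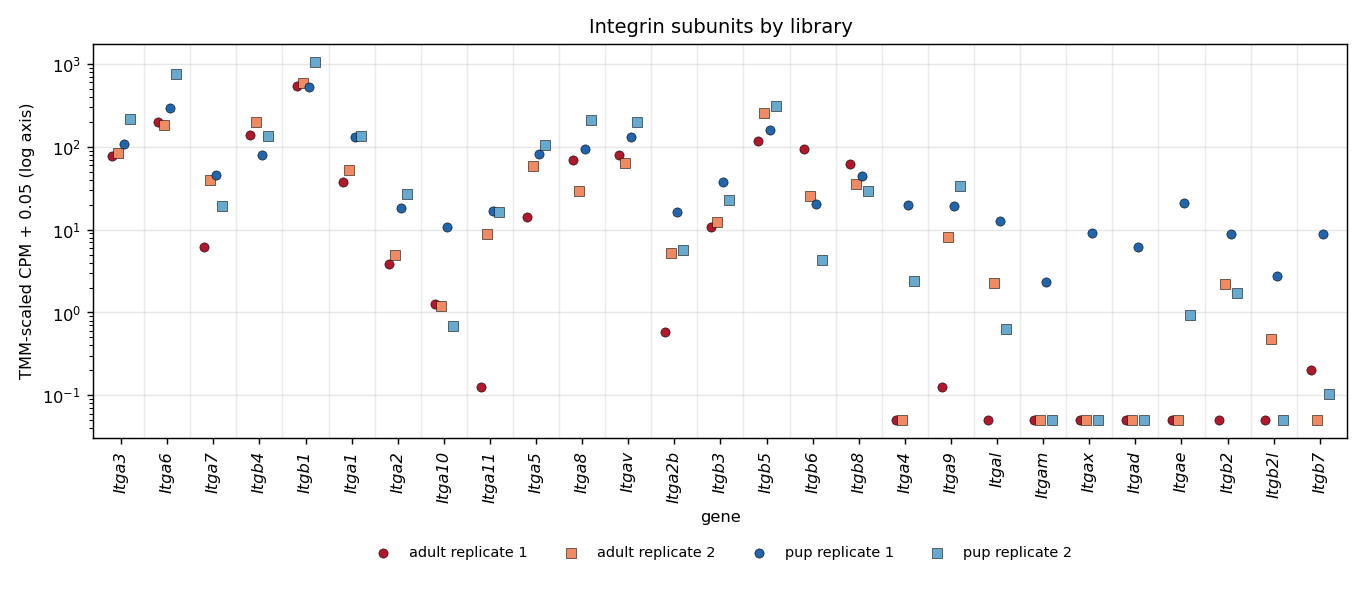
TMM-scaled CPM plus 0.05 of the 27 integrin subunit genes in each library, on a log axis; points at 0.05 stand for 0 counts, and each point is 1 library (red and orange adult, dark and light blue pup). Itgb4 and Itgb6 have both adult points above both pup points (Itgb6 not under upper-quartile factors or library totals), and most leukocyte integrins have counts mainly in pup replicate 1.

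Of the integrins that bind laminin, alpha6 pairs with beta4 in hemidesmosomes and with beta1 elsewhere, while alpha3 and alpha7 pair with beta1. Itga6 stood at 202, 183, 293 and 760 CPM, and Itga3 at 76.9, 83.4, 107 and 220 CPM. Both pups exceeded both adults for each, with pup replicate 2 the highest, and the log2 fold changes were -1.45 ± 0.74 (edgeR adjusted p = 0.453, DESeq2 adjusted p = 0.0904) and -1.03 ± 0.56 (edgeR adjusted p = 0.481). Itgb1 (chromosome 8, 128685654 to 128733200), the beta subunit shared by the largest number of integrins, stood at 536, 594, 529 and 1060 CPM. Pup replicate 1 was level with the adults, so the groups overlapped, and the log2 fold change was -0.49 ± 0.81 (edgeR adjusted p = 0.850), or 0.095 without pup replicate 2. Itgb4 (chromosome 11, 115974709 to 116008412), whose long tail binds keratin filaments through plectin, stood at 141, 201, 79.3 and 136 CPM. Both adults lay above both pups, adult replicate 1 by little over pup replicate 2, and the log2 fold change was 0.66 ± 0.55 (edgeR adjusted p = 0.671, DESeq2 adjusted p = 0.610). The 6 epithelium markers (Epcam, Cdh1, Krt8, Krt18, Krt7 and Cldn4) all had both adults above both pups, against 21.8% of all genes. None was at 0 in any library, and their summed CPM was 9248, 13393, 1776 and 4191. DESeq2 called 3 of them higher in adult, against 3.66% of all genes, and the part of these markers in the Itgb4 level was not tested. Itga7, the muscle laminin receptor, stood between 6.05 and 46.2 CPM with groups that overlapped.

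Relative to Itgb1 within a library, per kb of exon, Itgb4 stood at 0.153, 0.197, 0.0873 and 0.0748. The adults were above the pups by 2.15-fold (log2 1.10), with an exact permutation p of 0.3333 and 0.889 after adjustment over the 8 ratios, and the log2 difference stayed between 0.92 and 1.28 when any library was left out. Itga6 to Itga3 was 1.66, 1.39, 1.73 and 2.19, so that Itga6 was the higher of both in every library per kb, with the pups slightly above the adults (log2 -0.36, exact permutation p = 0.3333). Neither of the hemidesmosome chains Lama3 and Lamb3 shared the direction of Itgb4.

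**Figure D4:**
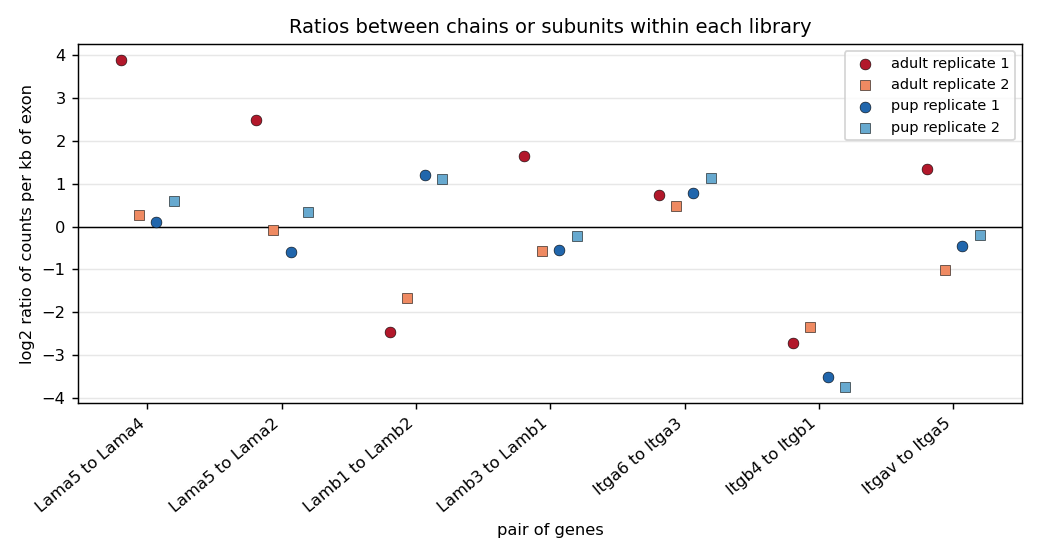
Log2 ratio of counts per kb of exon between 2 genes within each library, for 7 of the ratios compared; each point is 1 library and 0 marks equal levels. Lamb1 to Lamb2 and Itgb4 to Itgb1 separate the adult (red, orange) from the pup (blue) points, and adult replicate 1 stands alone for Lama5 to Lama4, Lama5 to Lama2, Lamb3 to Lamb1 and Itgav to Itga5.

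A further 4 ratios had groups that overlapped, and in each adult replicate 1 was above the other 3 libraries. Lama5 to Lama4 was 14.7 in adult replicate 1 and 1.08 to 1.52 in the other libraries, and Lama5 to Lama2 was 5.65 there and 0.664 to 1.26 elsewhere. Lamb3 to Lamb1 was 3.14 there and 0.674 to 0.863 elsewhere, and Itgav to Itga5 was 2.55 there and 0.494 to 0.871 elsewhere. Their exact permutation p-values were 0.667 or 1. These ratios thus set adult replicate 1 apart from the other adult as much as from the pups, which the ratio of Lamb1 to Lamb2 did not.

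Collagen-binding integrins pair an alpha subunit with beta1. Itga1, a receptor for collagen IV and collagen I, stood at 37.6, 52.1, 133 and 136 CPM. Replicates of each age were close and the groups far apart; the log2 fold change was -1.59 ± 0.47 (edgeR adjusted p = 0.277, DESeq2 adjusted p = 0.0132), and 21.3% of the pup replicate 1 count is expected as background. Itga2, a collagen receptor of epithelium and platelets, stood at 3.76, 4.90, 18.2 and 26.7 CPM, with the same order of groups (log2 fold change -2.37 ± 0.90, edgeR adjusted p = 0.307, DESeq2 adjusted p = 0.0483). In pup replicate 1 59.6% of its count is expected as background. Itga11, a fibroblast collagen receptor, had a single count in adult replicate 1 and 8.78, 16.7 and 16.4 CPM in the others. Of its count in pup replicate 1, 46.8% is expected as background. After subtraction at unchanged scaling Itga11 stood there at 8.87 CPM, about level with adult replicate 2. Itga10 stood above 2 CPM in pup replicate 1 alone, at 10.7 CPM, where 73.5% is expected as background, and it shares 33.5% of its exon length with an overlapping gene.

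**Figure D5:**
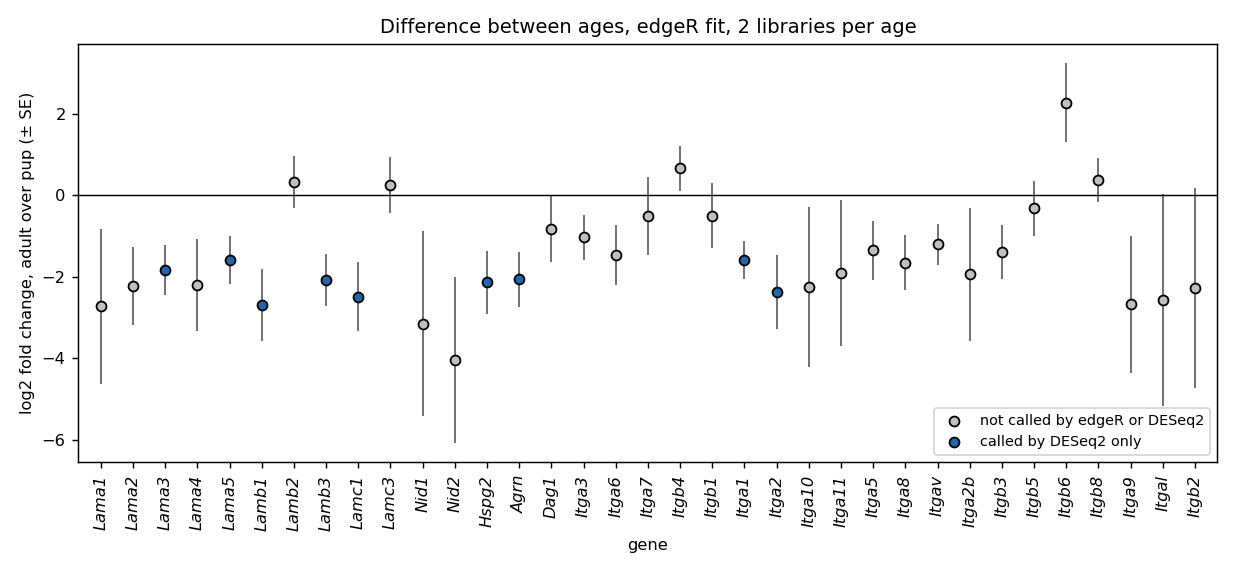
Log2 fold change of adult over pup with its SE for 35 tested genes of the set (edgeR, 2 libraries per age), ordered by role; Itga4 and Itgae, with 0 counts in both adults, are left out. Blue marks genes that DESeq2 alone called, all of them below 0, and Itgb6 is the highest point at 2.28.

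The RGD-binding integrins recognise a short peptide motif in fibronectin, vitronectin, nephronectin or the latent form of TGF-beta. Of the 8 subunit genes, 6 had a log2 fold change below 0 and DESeq2 called 0, with edgeR at an unadjusted p under 0.05 for Itga8 alone. Itgav, the common alpha subunit of this group, stood at 79.0, 62.9, 130 and 197 CPM, both pups above both adults (log2 fold change -1.20 ± 0.51, edgeR adjusted p = 0.358, DESeq2 adjusted p = 0.102). Itga8, whose ligand nephronectin lies in basement membranes, stood at 69.2, 28.9, 95.1 and 213 CPM in the same order (log2 fold change -1.65 ± 0.67, edgeR adjusted p = 0.340, DESeq2 adjusted p = 0.136). Itga5, the fibronectin receptor, stood at 14.3, 58.5, 81.8 and 104 CPM, again with both pups above, and with the adults 4.11-fold apart (log2 fold change -1.35 ± 0.72, edgeR adjusted p = 0.474). The 3 genes thus shared an order of groups, at smaller differences than Lamb1 or Lamc1.

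The beta partners of Itgav differed among themselves in their order. Itgb3 stood at 10.7, 12.3, 37.1 and 23.0 CPM, both pups above both adults (log2 fold change -1.39 ± 0.66, edgeR adjusted p = 0.421, DESeq2 adjusted p = 0.269). Itgb5 stood at 116, 259, 160 and 308 CPM and overlapped between ages (log2 fold change -0.32 ± 0.67, edgeR adjusted p = 0.888; 0.11 without adult replicate 1 and 0.23 without pup replicate 2). Itgb6 (chromosome 2, 60598292 to 60722643), an epithelial subunit that with Itgav activates TGF-beta, stood at 94.7, 25.4, 20.6 and 4.31 CPM. Both adults were above both pups, but adult replicate 2 was only just above pup replicate 1 and lay below it under upper-quartile factors or library totals; in pup replicate 1 52.5% of 190 counts is expected as background. The log2 fold change was 2.28 ± 0.98 (edgeR adjusted p = 0.365, DESeq2 adjusted p = 0.235), the highest of the 38 members; leaving out adult replicate 1 gave 0.96, and leaving out adult replicate 2 gave 2.94 with an edgeR adjusted p of 0.0141. Without adult replicate 2 edgeR called Itgb6 as 1 member higher in adult, against 1.51% of all genes, and 6 members higher in pup (Lama1, Lama4, Nid1, Nid2, Itga9 and Itga11), against 4.49%. Fgf10, at 195, 40.3, 27.3 and 24.1 CPM, and the ionocyte markers Foxi1, Ascl3, Bsnd, Atp6v1b1, Hepacam2 and Stap1, at a summed 5211, 2609, 51.7 and 41.2 CPM, were likewise higher in both adults than in both pups and highest in adult replicate 1. The ionocyte sum of pup replicate 1 was 21.1 CPM after subtraction, which turns the order of the pups, and the part of these genes in the Itgb6 level was not tested. Itgb8, another activator of TGF-beta, stood at 61.5, 35.4, 44.8 and 29.5 CPM, with groups that overlapped. Of its count in pup replicate 1, 37.5% is expected as background. Itga2b, which pairs with Itgb3 in the platelet fibrinogen receptor, stood at 0.536, 5.18, 16.3 and 5.62 CPM. Both pups were above both adults, pup replicate 2 by little, with 50.7% of the pup replicate 1 count expected as background. Of 5 megakaryocyte and platelet markers 4, 3, 0 and 2 had 0 counts in the 4 libraries, and their sum was 2.99, 2.81, 12.4 and 2.52 CPM, or 3.46 CPM in pup replicate 1 after subtraction.

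Itga4 and Itga9 encode related alpha subunits that bind fibronectin, VCAM1 and tenascin. Itga4 had 0 counts in both adults and, in pup replicates 1 and 2, 185 and 45 counts. The background expected in pup replicate 1 is 196 counts, so that its count there is no higher than background, and after subtraction Itga4 was at least 14.3-fold lower in the pooled adults, against a floor of 3 counts over both. Itga9 stood at 0.0766, 8.21, 19.3 and 33.7 CPM, with both pups above both adults and a single count in adult replicate 1. In pup replicate 1 60.7% of its count is expected as background, and after subtraction at unchanged scaling it stood there at 7.58 CPM, below adult replicate 2. On counts without subtraction, DESeq2 called Itga4 higher in pup (adjusted p = 0.00142) but not Itga9 (adjusted p = 0.372).

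The 8 leukocyte integrin genes were near 0 outside pup replicate 1. Itgae, which pairs with beta7 on T cells in epithelium, had 0, 0, 194 and 17 counts, with 64.3 expected as background in pup replicate 1. After subtraction Itgae was at least 46.6-fold lower in the pooled adults against the same floor. That bound rests mainly on pup replicate 1, at 14.1 CPM after subtraction, against 0.893 CPM in pup replicate 2. DESeq2's adjusted p, from counts without subtraction, was 0.00378. Itgal had 0, 31, 118 and 11 counts and Itgb2 had 0, 30, 82 and 32 counts, and both overlapped between ages. The 5 members that did not pass the filter, Itgam, Itgax, Itgad, Itgb2l and Itgb7, had 21 to 84 counts in pup replicate 1 and 0 to 6 in any other library. In pup replicate 1 the background expected was above the count for Itgam, Itgad and Itgb2l and was 80.3% of it for Itgax and 47.4% for Itgb7. The 10 leukocyte markers summed to 42.5, 31.8, 124 and 14.4 CPM, or 64.2 CPM in pup replicate 1 after subtraction, and Cd3e and Adgre1 had 0 counts in both adults and in pup replicate 2. Itgam also shares 68.7% of its exon length and Itgad 19.7% with overlapping genes.

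Levels of different genes were compared per kb of exon. Itgb1 was the highest of the 43 in each library, at 131, 145, 130 and 260 CPM per kb. In adult replicate 1 Dag1 followed at 51.6 and Itgb5 at 32.8 CPM per kb, and in adult replicate 2 Itgb5 at 72.8, Dag1 at 53.9 and Lamb2 at 50.6. In the pups Nid1 followed at 121 and 181 CPM per kb, then Lamc1 at 56.1 and Lamb1 at 49.2 in pup replicate 1, and Dag1 at 141 and Lamc1 at 110 in pup replicate 2. Receptors led in the adults, and a secreted linker stood next to the top receptor in both pups. Within the integrin beta family Itgb1 held 64.1%, 56.7%, 63.0% and 69.5% per kb, and within the alpha family Itga6 held 37.8%, 29.3%, 24.9% and 39.4%, both without a split by age.

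The adults differed from each other for part of the set. Of the 38 tested members 28 had at least 10 counts in adult replicate 1. For 16 of these 28 the adults were within 2-fold of each other, and for 10 of those 16 both pups lay above both adults. Among the 28, the 4 with adults more than 4-fold apart were Lama2, Lama4, Itga5 and Itga7, all higher in adult replicate 2. The shares of all genes were not computed for the counts of 16, 10 and 4, so these describe the members only. Adult replicate 2 was above adult replicate 1 for 26 of the 38, against 52.4% of all genes tested, and pup replicate 2 above pup replicate 1 for 26, against 47.9%. With adult replicate 1 left out, the ratio of Lamb1 to Lamb2 still differed between ages by -2.82 (log2) and that of Itgb4 to Itgb1 by 1.28.

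Genes that work with the set were taken from 5 lists chosen for known function. Among 18 basement membrane partners edgeR called 0, with 8 at an unadjusted p under 0.05, all higher in pup, against 8.49% of all genes. DESeq2 called 9, also all higher in pup, against 5.2% of all genes, and the median log2 fold change was -2.12. Col4a1, an alpha chain of the collagen IV network, stood at 366, 855, 2227 and 4436 CPM and its partner Col4a2 at 167, 340, 1159 and 2752 CPM. Pxdn, the peroxidase that cross-links collagen IV, stood at 21.0, 41.3, 264 and 426 CPM (log2 fold change -3.47 ± 0.68, edgeR adjusted p = 0.196, DESeq2 adjusted p = 5.90e-08). Both pups lay above both adults for all 3. Frem2, of the Fras complex that anchors embryonic epithelium, had 0 counts in both adults, which were at least 107-fold lower than the pups after subtraction. Its 176 counts in pup replicate 1 are below the 186 expected as background, so that pup replicate 2 alone holds it above background. Fras1 and Frem1 of the same complex were also called higher in pup by DESeq2. Col4a5, Col4a6 and Col7a1 made up the rest of the 9 with Col4a1, Col4a2 and Pxdn.

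Medians of the dystroglycan glycosylation and adhesion plaque genes lay near that of all genes, and the median of the hemidesmosome genes was lower. For 11 genes of dystroglycan glycosylation (of 12 listed, 1 with no matching symbol) edgeR and DESeq2 called 0 and none lay at an unadjusted p under 0.05, with 4 above and 7 below 0 and a median of -0.20. Pomgnt1, which builds the sugar chain of dystroglycan, stood at 120, 116, 28.4 and 66.8 CPM, and B4gat1, which primes the laminin-binding sugar, at 39.0, 52.7, 47.7 and 77.5 CPM. Both adults lay above both pups for Pomgnt1 (edgeR adjusted p = 0.367), and B4gat1 overlapped and shares 85.3% of its exon length with another gene. For 23 tested genes of integrin activation and the adhesion plaque, such as talin, kindlin and vinculin, edgeR and DESeq2 called 0, none lay at an unadjusted p under 0.05, and the median of -0.24 equalled that of all genes. Actn4, an actin cross-linker, stood at 867, 1027, 692 and 1237 CPM and Tns1, a tensin, at 344, 218, 275 and 498 CPM, with groups that overlapped. The 7 hemidesmosome genes had a median of -0.58, with 2 above and 5 below 0, where 57.1% of all genes lay below 0. Of these 7 DESeq2 called 1 higher in pup, against 5.2% of all genes, while edgeR called 0. The gene called was Krt14, at 736, 253, 1257 and 2849 CPM (DESeq2 adjusted p = 0.0355). At an unadjusted p under 0.05 edgeR placed 1 of the 7 higher in pup, against 8.49% of all genes. It was Col17a1, the transmembrane collagen of hemidesmosomes, at 105, 46.5, 165 and 296 CPM. Krt14 is also a basal epithelium marker, and Plec, the plectin that binds Itgb4, stood at 215, 311, 229 and 362 CPM with groups that overlapped.

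Among 14 other integrin ligands 11 were tested, and edgeR called 0. At an unadjusted p under 0.05 edgeR placed 1 of the 11 higher in adult, against 5.99% of all genes. DESeq2 called 1 higher in adult, against 3.66% of all genes, and 1 higher in pup, against 5.2%. Counts this small among 11 genes say little about the list, and the 2 genes called are given by their values. Vwf, the von Willebrand factor of endothelium and platelets, stood at 260, 506, 43.4 and 3.84 CPM (log2 fold change 4.02 ± 1.21, edgeR adjusted p = 0.280, DESeq2 adjusted p = 0.00401). Adult replicate 1 thus had 260 CPM of Vwf while 6 of 7 endothelium markers had 0 counts there. Thbs1, the matricellular protein thrombospondin, stood at 537, 585, 1175 and 2552 CPM (log2 fold change -1.73 ± 1.01, edgeR adjusted p = 0.523, DESeq2 adjusted p = 0.00988). Fn1, fibronectin itself, stood at 0.0766, 128, 321 and 584 CPM, nearly absent from adult replicate 1 as the nidogens were, and Tnc, tenascin C, had 0 counts there.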

How the data were processed

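RNA of 4 libraries was analysed, 2 per age, grouped by the sample titles. Per the labels' protocols, libraries were made from 1 ng of total RNA each with a full-length cDNA kit (SMART-Seq HT). The authors deposited raw counts of reads per Ensembl gene. The submitters' processing notes name cutadapt 1.18, STAR 2.5.2a, HTSeq 0.11.0, R 3.5.1, DESeq2 1.20.0 and GRCm38; the options, the annotation release and whether counting used strand are not stated in those notes. HTSeq's tallies of unassigned reads, 31.5% to 84.4% of all reads tallied per library, stayed out of library sizes and tests. In 2 tables of the whole series, the 8 value columns match no single sample and were not used.

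Symbols, positions and merged exon lengths came from GENCODE vM21 (53360 of 53465 IDs matched). Without strand, overlapping genes cannot be told apart; 3 members share over 10% of their exon length. Counts were fitted in R 4.3.3 with edgeR 4.0.16: TMM factors, age as the single term, the quasi-likelihood F test, a filterByExpr minimum of 10 counts and 15 in total, and Benjamini-Hochberg adjustment over 16320 genes at 0.05, with a common biological coefficient of variation of 0.895. Log2 fold changes are adult over pup. CPM of untested genes use the same factors. The background of pup replicate 1 was taken as its counts per kb over olfactory receptor genes, with a factor of 0.5 for X and Y genes. Of 10 ratios defined, 8 had at least 10 counts in every library and were compared; counting intervals and floors (3 counts) cover counting error only. Alternatives were DESeq2 1.42.0, limma-voom 3.58.1, other size factors, filters and an adjusted p of 0.01, the replicate number as a block, background subtraction, and each library left out; counts of members whose groups do not overlap were recomputed after the data were seen. Only the edgeR fit was run on simulated data, with changes larger than those of most members here. The DESeq2 and limma-voom fits were not, so the simulation does not bear on their calls.

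The members and lists were chosen with earlier results of these data known. Members with a mean of at least 50 CPM in an age were given in each library, except 1 that is counted in the totals but is not reported here. Of each list of partners, up to 4 called members by fold were to be named, or the 2 of highest mean CPM; Col4a1, Col4a2, Col4a5, Col4a6, Col7a1, Col17a1, Fn1 and Tnc were added after their values were seen. RefSeq promoters were found for 28 of the 43.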

Additional observations from a re-analysis of the deposited data

How the results depend on the processing

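The number of genes called is the least stable value. Against 0 in each direction, DESeq2 called 597 genes higher in adult and, in the other direction, 848. By edgeR the numbers were 284 and 231 with no filter beyond 1 count, 13 and 2 with 10 counts in every library of an age, and 15 and 2 with the background of pup replicate 1 subtracted. Leaving out each library in turn gave 0 to 247 called higher in adult and 0 to 733 called higher in pup (229 and 161 for adult replicate 1 left out, 247 and 733 for adult replicate 2, 0 and 0 for either pup library); the lone sample is then assumed to vary like the other age. Members called higher in pup were 12 by DESeq2, 1 with no filter, and 0 to 6 with a library left out, and members called higher in adult were 0 to 1 with a library left out. The cause was not tested. Members with both pups above both adults numbered 25 to 31, while the same share of all genes ran from 24.0% (26 members, background subtracted) to 47.0% (30 members, pup replicate 2 left out). Those with both adults above both pups numbered 1 under upper-quartile factors and library totals, against 18.7% and 15.7% of all genes, and 3 to 5 with a library left out, against 30.2% to 35.7%, where fewer libraries must be separated.

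Of 38 members 29 kept their direction under all 14 alternatives. For 9 members the log2 fold change turned when 1 library was left out, and the values so obtained ranged from -1.43 to 0.26 for Dag1, -3.16 to 0.90 for Itga10, -2.43 to 0.26 for Itga7, -9.52 to 0.93 for Itgal, -0.91 to 0.095 for Itgb1, -1.004 to 0.23 for Itgb5, -0.13 to 0.73 for Itgb8, -0.26 to 0.81 for Lamb2 and -0.29 to 0.62 for Lamc3. Library totals gave -0.028 for Itgb8 and -0.12 for Lamc3. Among the log2 ratios the ranges were -0.084 to 3.53 for Lama5 to Lama4, -0.19 to 2.03 for Lamb3 to Lamb1 and -0.69 to 1.68 for Itgav to Itga5, each negative without adult replicate 1 only. The median log2 fold change was -0.24 over all genes and -1.87 over the members; it was -0.31 and -1.94 under DESeq2 size factors, -0.42 and -2.04 under upper-quartile factors, and -0.62 and -2.16 under library totals.

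With the replicate number as a block, edgeR called 0 genes in each direction, and 1 member higher in adult and 14 higher in pup lay at an unadjusted p under 0.05, against 787 and 866 of all 16320 genes. Across genes, deviations of adult replicate 1 from its age's mean correlated at -0.098 with those of pup replicate 1 and 0.098 with pup replicate 2. With 2 libraries per age these values mirror each other by construction, so they cannot decide whether the replicate numbers pair the samples. Depth limits the genes with few counts, above all the leukocyte integrins. In pup replicate 1 the background expected for them ran from 33.1% of the count for Itgae to more than the count for Itgam, Itgad and Itgb2l.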
